A study of Mus musculus with 6 samples.

Results

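The genes described here are 35 named genes of cholesterol and fatty acid synthesis, out of 54752 genes counted in mouse NIH/3T3 fibroblasts. They were named by symbol as genes of these pathways, with no threshold on a measured value but with earlier results of these data known. All 35 symbols were found in the count table. By role they comprise 5 regulators of the sterol-regulated transcription factors (Srebf1, Srebf2, Scap, Insig1 and Insig2), 7 mevalonate pathway enzymes including Acat2, 11 enzymes from squalene to cholesterol, 8 enzymes of fatty acid synthesis and desaturation, the pair Stard4 and Lpin1, and the cholesterol exporters Abca1 and Abcg1. Of these, 33 passed the filter on low counts, which asked for at least 10 CPM (counts scaled to the library total) in more than 3 of the 6 libraries. Abca1 lay below it and was tested with a looser filter, and Abcg1, with 2 counts in all, was not tested.

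NIH/3T3 is an established line of mouse embryo fibroblasts, and the study used it to ask how a PLK1 inhibitor alters the response to TGF-β1, a cytokine that turns fibroblasts into contractile, collagen-producing myofibroblasts. Total RNA was sequenced after 72 h in 3 groups of 2 libraries. The vehicle group received PBS. The DMSO group received 1 ng/ml TGFB1 with DMSO, and the BI6727 group received 1 ng/ml TGFB1 with 5 μM BI6727, an inhibitor of the mitotic kinase PLK1 also known as volasertib. Both treated groups thus carried TGFB1, and no library had DMSO without TGFB1, so that the effects of TGFB1 and of DMSO cannot be told apart. All libraries came from 1 cell line, and the methods speak of biological replicates but give their number differently in different places and do not describe how they were grown. The p-values measure the spread between these libraries, which may be technical.

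Cells sense their membrane cholesterol through Scap, a carrier that holds the precursors of the transcription factors SREBP-1 (Srebf1) and SREBP-2 (Srebf2) in the endoplasmic reticulum together with the anchors Insig1 and Insig2. When sterol is scarce, Scap carries the precursors to the Golgi, where proteases release the active factor, which binds sterol regulatory elements (SREs) beside sites for NF-Y and Sp1 and raises transcription of the mevalonate, sterol and fatty acid enzymes. When oxysterols accumulate, the LXR receptors raise the exporters Abca1 and Abcg1 instead. The enzymes of the set are thus known as a module that often moves together. In fibroblasts they chiefly supply membranes, and in liver also lipoproteins.

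The promoter sequences of the 6 enzymes that differed upward in the DMSO group, so far as they were in the RefSeq table, are shown with those of Hmgcs1 and Mvk, because these motifs are what the members are known to share. Each runs from 250 bases before to 50 bases after the annotated start, 5′ to 3′ on the strand given (RefSeq, GRCm38.p6). Capitals mark CCAAT or its reverse complement ATTGG, the NF-Y motif, and in Hmgcs1 also the run TCACCCCAC, which matches the SRE letters TCACNCCAC.
Hmgcs1, chr13:119690101-119690400, plus strand: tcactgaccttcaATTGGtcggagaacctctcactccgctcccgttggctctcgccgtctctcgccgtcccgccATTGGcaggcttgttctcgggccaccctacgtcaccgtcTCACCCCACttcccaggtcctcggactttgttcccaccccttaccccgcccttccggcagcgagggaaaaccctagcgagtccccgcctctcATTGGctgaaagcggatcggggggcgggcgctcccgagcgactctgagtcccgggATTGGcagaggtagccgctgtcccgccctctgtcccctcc
Mvk, chr5:114444019-114444318, plus strand: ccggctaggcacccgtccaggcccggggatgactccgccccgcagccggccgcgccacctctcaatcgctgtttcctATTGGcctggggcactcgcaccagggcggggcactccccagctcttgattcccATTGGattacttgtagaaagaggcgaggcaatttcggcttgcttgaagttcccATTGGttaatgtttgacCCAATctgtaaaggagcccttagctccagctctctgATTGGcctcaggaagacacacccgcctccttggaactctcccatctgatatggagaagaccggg
Mvd, chr8:122443373-122443672, minus strand: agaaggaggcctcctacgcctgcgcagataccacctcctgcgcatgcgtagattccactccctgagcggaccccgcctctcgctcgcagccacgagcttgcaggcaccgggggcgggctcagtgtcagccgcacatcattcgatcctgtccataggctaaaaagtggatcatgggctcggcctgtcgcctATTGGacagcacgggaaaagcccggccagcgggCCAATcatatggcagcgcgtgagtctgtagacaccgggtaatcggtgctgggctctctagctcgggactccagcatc
Idi1, chr13:8885356-8885655, plus strand: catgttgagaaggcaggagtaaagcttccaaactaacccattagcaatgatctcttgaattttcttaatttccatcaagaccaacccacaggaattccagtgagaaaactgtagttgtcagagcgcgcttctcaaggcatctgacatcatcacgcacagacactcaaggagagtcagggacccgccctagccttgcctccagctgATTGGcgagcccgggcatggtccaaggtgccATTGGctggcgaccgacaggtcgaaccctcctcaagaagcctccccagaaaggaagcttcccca
Cyp51, chr5:4104648-4104947, minus strand: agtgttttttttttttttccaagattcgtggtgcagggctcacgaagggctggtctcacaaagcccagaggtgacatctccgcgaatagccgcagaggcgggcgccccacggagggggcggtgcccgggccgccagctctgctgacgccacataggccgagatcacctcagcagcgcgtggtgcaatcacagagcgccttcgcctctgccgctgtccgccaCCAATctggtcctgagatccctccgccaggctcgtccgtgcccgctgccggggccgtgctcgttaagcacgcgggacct
Tm7sf2, chr19:6067801-6068100, minus strand: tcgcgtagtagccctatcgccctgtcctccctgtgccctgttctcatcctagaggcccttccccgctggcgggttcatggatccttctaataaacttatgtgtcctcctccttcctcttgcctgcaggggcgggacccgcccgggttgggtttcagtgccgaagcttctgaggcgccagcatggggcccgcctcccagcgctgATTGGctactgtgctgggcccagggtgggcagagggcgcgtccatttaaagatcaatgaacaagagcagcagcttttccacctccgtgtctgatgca
Msmo1, chr8:64733529-64733828, minus strand: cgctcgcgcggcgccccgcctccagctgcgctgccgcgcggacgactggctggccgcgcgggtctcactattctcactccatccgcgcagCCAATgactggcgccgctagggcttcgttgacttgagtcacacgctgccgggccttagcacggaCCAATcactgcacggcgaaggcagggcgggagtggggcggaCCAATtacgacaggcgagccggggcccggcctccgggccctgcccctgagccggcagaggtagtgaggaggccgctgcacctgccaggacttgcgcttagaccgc

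Promoters of this length were in the table for 27 of the 35 members, 35 promoters in all, and those of Fdps, Fdft1, Sqle, Scd1, Scd2, Fads1, Stard4 and Abcg1 were not used here. Both strands were searched, and none of the 4 motifs contains another. CCAAT was found in 60.0% of the member promoters and in 37.4% of all 32851 promoters in the table. The GC-box GGGCGG, which Sp1 binds, was found in 74.3% of the member promoters against 35.7% of all, and the E-box CACGTG in 20.0% against 7.15%. The exact SRE letters were found in only 1 member promoter, that of Hmgcs1 at 137 bases before the start, or 2.86% against 1.24% of all. The members' promoters therefore held CCAAT and the GC-box more often than the table as a whole, whereas the strict SRE letters hardly occurred. That table is not limited to genes expressed in these cells, and the share among the tested genes was not counted. CCAAT was found in members of each response. It was present in 5 of the 5 matched members that were higher in the DMSO group, in 2 of the 2 that were lower and in 13 of the 19 not called. A member counts here if any of its promoters holds CCAAT, and Insig2 also has promoters without it. Mvk, which was lower, held 5 copies within 173 bases of its start, while Cyp51, which was higher, held 1 copy at 29 bases. A match of letters is a description and not a shown binding site.

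The libraries held 18362378 to 24452153 counts, and 18911 to 19891 genes had at least 1 count. The 35 members took between 0.500% and 0.622% of the counts. All 8 fibroblast markers passed the filter, with a summed level of 6161 to 7870 normalized CPM, while none of the 8 adipocyte markers did. Among the adipocyte markers Lpl alone was above 3 CPM in vehicle, Lep was 0 in all libraries, and Adipoq, Plin1, Pparg, Cebpa and Cidec stayed at or below 0.223 CPM. Acta2, the smooth muscle actin that marks myofibroblasts, was higher in the DMSO group than in vehicle, with a log2 fold change of 2.30 (edgeR adjusted p = 2.71e-05).

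The 2 DMSO libraries stood apart from each other, which bears on every comparison below that uses them. Over the members, the standard deviation (SD) of the log2 difference between replicates was 0.319 in the DMSO group, against 0.0986 in vehicle and 0.101 in the BI6727 group. The same quantity over all tested genes was 0.377, 0.163 and 0.147. The split followed gene length, as genes of at least 4000 bases had a median log2 deviation of -0.14 in DMSO replicate 2 and 0.04 in replicate 1, while genes under 2000 bases had 0.26 and -0.12. Of the members, 24 of 35 are at least 4000 bases long, beside 5297 of the 9518 tested genes. The median length was 4866 bases for the tested members and 4426 for all tested genes. Fasn, with 10947 exonic bases, differed most, by 0.89 on the log2 scale, where the trend of all genes at its length was 0.38. All 8 fatty acid enzymes were higher in DMSO replicate 1, by 0.22 to 0.89. By contrast, Fdps, Tm7sf2 and Msmo1 were higher in replicate 2, and lay 0.41, 0.29 and 0.26 apart. Length thus accompanied the split, but the fatty acid enzymes lay above the length trend in 7 of 8 cases, Acaca being the exception. Mitochondrial transcripts took 3.41% of the counts in DMSO replicate 1 and 5.58% in replicate 2. What part these differences have in the results was not tested.

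**Figure D1:**
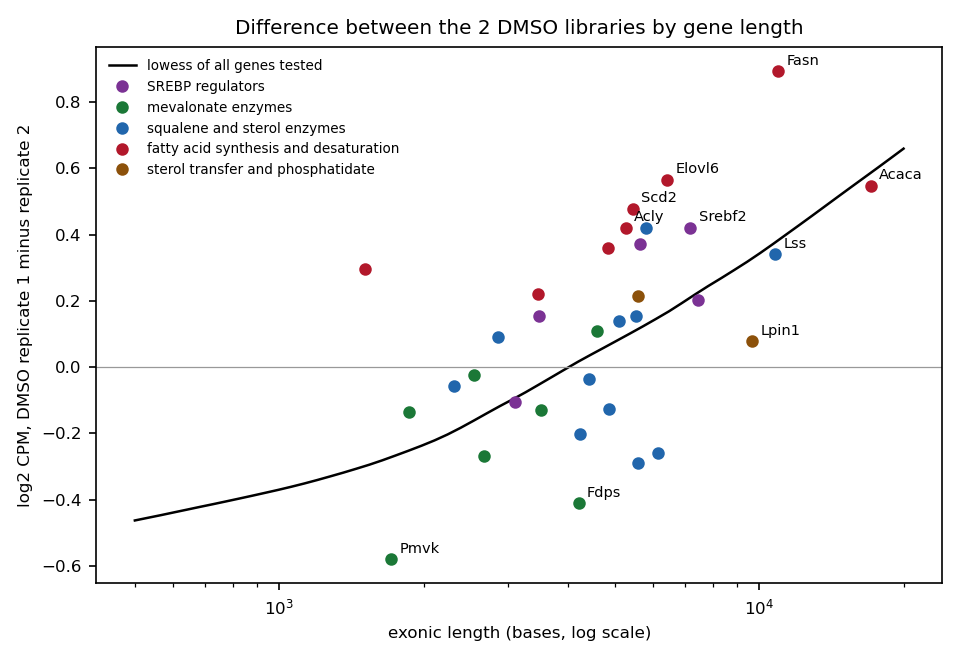
Log2 CPM of DMSO replicate 1 minus DMSO replicate 2 (vertical axis) for the 33 tested members against exonic length in bases (horizontal log axis), coloured by role, with the lowess curve of all 9518 tested genes. Fasn sits at 0.89, above the curve, and Pmvk lies lowest.

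In untreated cells the members covered a wide range of transcript levels, here given as normalized CPM per kilobase of exon, the mean of 2 vehicle libraries. Acat2, the cytosolic thiolase that makes acetoacetyl-CoA, was highest at 164, although 39.1% of its 50-base windows are shared with Acat3 or Tcp1. The stearoyl-CoA desaturase Scd2 followed at 156, then Fads1 (84.2) and the lanosterol demethylase Cyp51 (80.8). Levels of the ATP-citrate lyase Acly (80.2) and of Cyp51 differed by less than 1 SD of Cyp51. The middle of the order was crowded, with Nsdhl (50.1), Insig1 (50.2) and Sqle (51.0) within 1 unit of each other. Srebf2 (37.8) was above Srebf1 (12.1) in both libraries. Acaca, the acetyl-CoA carboxylase, had only 1.51, and 30.4% of its windows are shared with other annotated genes. Abca1 was at 0.544, and Abcg1 was lowest with 2 counts in 1 vehicle library. Counts of genes with shared or overlapping sequence are uncertain, since how the authors' counting handled reads with several matches is not given in the sources used here. Besides Acat2 and Acaca this concerns Fdps (26.7% of exonic bases overlap Gm43738), Fdft1 (18.3%, the antisense gene Ctsb), Tm7sf2 (47.2%, Vps51 and Gm28374), Scap (13.2%), Hmgcs1 (12.1%) and Idi1 (25.3% of windows shared).

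**Figure D2:**
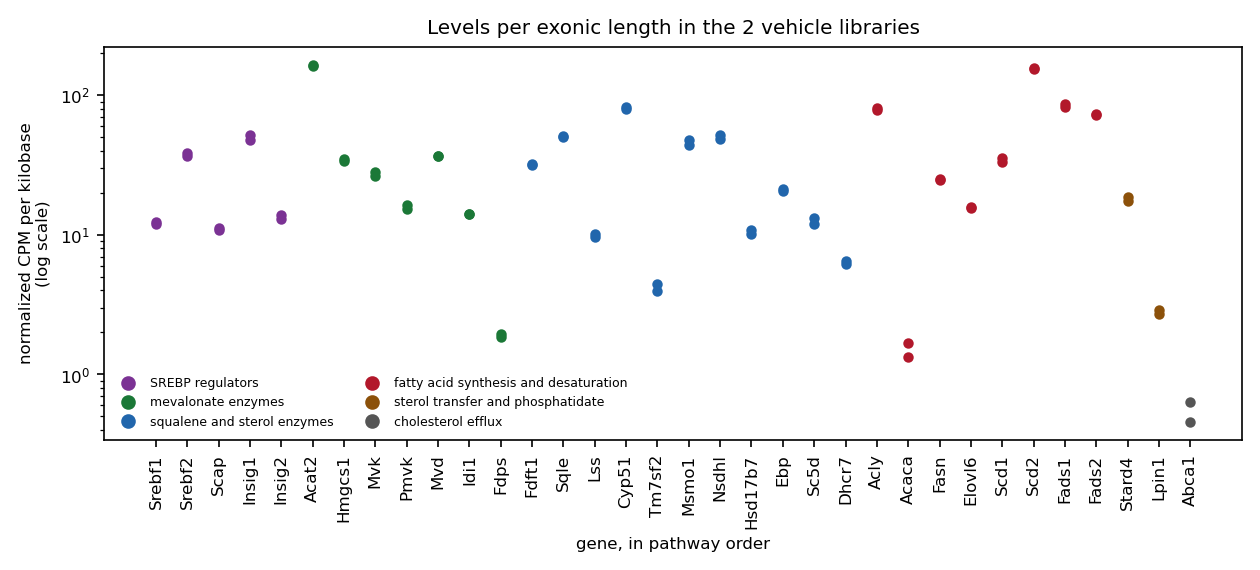
Normalized CPM per kilobase of exon (vertical log axis) of 34 members in each of the 2 vehicle libraries (points), in pathway order and coloured by role; Abcg1, with 0 counts in 1 library, is left out. Acat2 and Scd2 sit at the top and Abca1 at the bottom.

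Comparing the DMSO group with vehicle asks what TGFB1, given in DMSO, changed. In the later mevalonate pathway and the sterol pathway 6 enzymes were called higher, and none of the 5 regulators of the SREBP system was. The counts of Fdps, Tm7sf2 and Idi1 among them are uncertain, because their sequence overlaps or is shared with other genes, as given above. At an adjusted p below 0.05 (the quasi-likelihood test of edgeR, adjusted over 9518 genes after Benjamini and Hochberg), 6 of the 33 tested members were higher, namely Mvd, Idi1, Fdps, Cyp51, Tm7sf2 and Msmo1, and 2 were lower, Insig2 and Mvk. These are 18.2% and 6.06% of the tested members, where 11% of all genes were called higher and 12% lower. Counted in either direction, 24.2% of the members were called against 23% of all genes, so that the total was near the background. At the study's threshold of adjusted p below 0.01 and fold above 2, only Fdps was higher, where 2.56% of all genes were. None was lower, where 2.53% were. Fdps could be tested only through its level in the 4 treated libraries, as described below, and it is counted in the 18.2%. In 15 members (45.5%) both DMSO libraries were above both vehicle libraries and in 9 (27.3%) below, against 29.8% and 33.1% of all genes. The median log2 fold change of the 33 members was 0.13, against -0.00 for all genes. With 1 library left out at a time, the 6 members called higher had log2 fold changes between 0.38 (Cyp51) and 1.19 (Fdps). The 2 called lower were between -0.61 (Insig2) and -0.29 (Mvk). The calls of these 8 members were lost without either vehicle library. A call kept without a DMSO library is no support, since the fit then takes the lone DMSO library to vary like the other groups. Without either BI6727 library 4 of the 8 were called, and these were Fdps, Idi1, Msmo1 and Mvd.

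**Figure D3:**
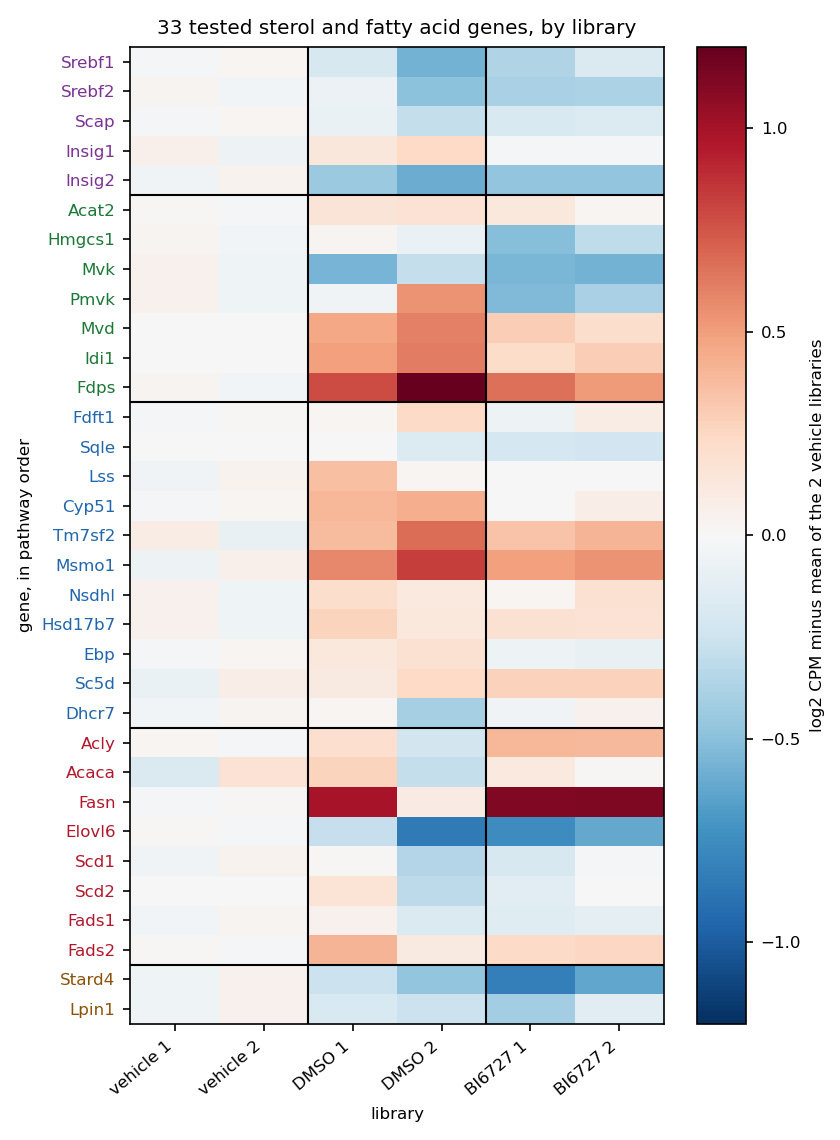
Colour map of log2 CPM minus the mean of the 2 vehicle libraries for the 33 tested members (rows, in pathway order, separated by role) in the 6 libraries (columns). Mvd, Idi1, Fdps, Tm7sf2 and Msmo1 are red in both DMSO and both BI6727 libraries, Cyp51 is red in the DMSO libraries, and Fasn is red in DMSO replicate 1 and both BI6727 libraries.

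Among the mevalonate enzymes, 3 of 7 rose and 1 fell (42.9% and 14.3%), where 11% of all genes were called higher and 12% lower. The 3 include Fdps, whose limit is given below. Mvd, which decarboxylates mevalonate diphosphate to isopentenyl diphosphate, measured 68.1 and 68.3 normalized CPM in vehicle, 94.1 and 103 in the DMSO group, and 83.9 and 79.0 in the BI6727 group. The 2 DMSO libraries were highest, the BI6727 libraries lay between, and no groups overlapped. The log2 fold change from vehicle to DMSO was 0.53 (SE 0.0988, edgeR adjusted p = 0.00911). Idi1, the isomerase that makes dimethylallyl diphosphate, followed the same order, with 49.1 and 49.3 in vehicle, 69.1 and 75.5 in the DMSO group and 57.2 and 60.2 in the BI6727 group. Its log2 fold change was 0.55 (SE 0.105, edgeR adjusted p = 0.0101).

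Fdps, which condenses these units to farnesyl diphosphate, had 158 and 173 counts in vehicle, 287 and 383 in the DMSO group and 229 and 278 in the BI6727 group. In normalized CPM these were 8.20 and 7.87, then 13.9 and 18.4, then 12.7 and 11.5. The vehicle libraries were lowest and the DMSO libraries highest, with a log2 fold change of 1.01 (SE 0.181, edgeR adjusted p = 0.00832). Fdps passed the filter only through its 4 treated libraries, so that it had to differ from vehicle to be tested, and without it 5 members rose. Mvk, the mevalonate kinase, went the other way at 75.0 and 70.3 in vehicle, 49.4 and 59.5 in the DMSO group and 49.6 and 49.1 in the BI6727 group. All 4 treated libraries were below both vehicle libraries, and the log2 fold change to DMSO was -0.42 (SE 0.122, edgeR adjusted p = 0.0476). That call lay close to the threshold and was lost with DESeq2's size factors (edgeR adjusted p = 0.0529) and with the vehicle and DMSO libraries fitted alone (edgeR adjusted p = 0.124).

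The remaining mevalonate enzymes did not pass the test. Hmgcs1, the HMG-CoA synthase that commits acetyl units to the pathway, had 162 and 156 in vehicle and 162 and 150.5 in the DMSO group, a log2 fold change of -0.02. Acat2 stood at 0.17 and the phosphomevalonate kinase Pmvk at 0.28, and the latter rested on DMSO replicate 2 (26.5 and 39.6 normalized CPM in the 2 DMSO libraries).

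Of the 11 enzymes from squalene to cholesterol, 3 rose (27.3%) and none fell, where 11% of all genes were called higher and 12% lower. Msmo1, the C4-methylsterol oxidase, was 269 and 294 in vehicle, 419 and 501 in the DMSO group and 396 and 409 in the BI6727 group. Every treated library was above both vehicle libraries, and the rise to DMSO was 1.63-fold, or 0.71 on the log2 scale (SE 0.117, edgeR adjusted p = 0.00586). Cyp51, which removes the C14 methyl group of lanosterol, was 351 and 363 in vehicle and 469 and 481 in the DMSO group, but 355 and 377 in the BI6727 group. The DMSO libraries stood above the other 4, which overlapped, and the log2 fold change was 0.41 (SE 0.0928, edgeR adjusted p = 0.0190). Tm7sf2, a C14-sterol reductase that acts on the product of Cyp51, had 24.9 and 22.1, then 30.5 and 37.3, then 29.7 and 31.1. Its log2 fold change to DMSO was 0.53 (SE 0.147, edgeR adjusted p = 0.0390). With the vehicle and DMSO libraries fitted alone, the calls of Cyp51 and Tm7sf2 were lost (edgeR adjusted p = 0.0683 and 0.0915). The 3 called sterol enzymes act one after another, Cyp51 and Tm7sf2 on the C14 position and Msmo1 on the C4 methyl groups. Lbr, another C14-sterol reductase that is not a member, went the other way, with 87.5 and 89.2 in vehicle and 73.3 and 72.3 in the DMSO group. Its log2 fold change was -0.28 to DMSO (edgeR adjusted p = 0.0715) and -0.33 from vehicle to BI6727 (edgeR adjusted p = 0.0410). The C14 reduction step as a whole is thus not shown to have risen.

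The other 8 sterol enzymes had log2 fold changes between -0.18 and 0.20, and none passed. Nsdhl and Hsd17b7, which complete the C4 demethylation with Msmo1, were at 0.16 and 0.20, the isomerase Ebp at 0.15 and the desaturase Sc5d at 0.17. In these 4 genes both DMSO libraries were above both vehicle libraries. The entry steps did not pass either, with squalene synthase Fdft1 at 0.13, squalene epoxidase Sqle at -0.08 and lanosterol synthase Lss at 0.20. Dhcr7, which makes cholesterol from its dehydro precursor, was at -0.18, with 37.5 and 28.0 in its 2 DMSO libraries.

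Among the 5 regulators 1 fell and none rose, where 12% of all genes were called lower and 11% higher. With so few genes, 1 call is not read as a result about the regulators. Insig2, which retains the Scap complex in the endoplasmic reticulum, was 45.2 and 48.1 in vehicle, 34.2 and 30.8 in the DMSO group and 33.6 and 33.6 in the BI6727 group. The 4 treated libraries lay together below vehicle, and the log2 fold change to DMSO was -0.52 (SE 0.117, edgeR adjusted p = 0.0190), a call that was lost with the vehicle and DMSO libraries fitted alone (edgeR adjusted p = 0.0653). Its paralog Insig1, itself a known SREBP target, was 162 and 149 in vehicle and 171 and 184 in the DMSO group, which did not pass at 0.19 (edgeR adjusted p = 0.184). Srebf1 had a log2 fold change of -0.37, Srebf2 of -0.26 and Scap of -0.18, with edgeR adjusted p-values of 0.112, 0.207 and 0.247. In each of these 3 genes both DMSO libraries were below both vehicle libraries.

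With edgeR none of the 8 fatty acid enzymes was called in the DMSO group against vehicle, and several of them differed widely between the DMSO libraries. DESeq2 called Fasn higher and Elovl6 lower (DESeq2 adjusted p = 0.0365 and 0.0319). Fasn, the fatty acid synthase, measured 270 and 276 in vehicle, 544 and 293 in the DMSO group and 590 and 593 in the BI6727 group. DMSO replicate 1 was near the BI6727 level and replicate 2 near the vehicle level, on 11262 and 6083 counts. The log2 fold change was 0.62 (SE 0.250, edgeR adjusted p = 0.118), and became 1.01 without replicate 2 and 0.10 without replicate 1. With a per-library trend on gene length removed, Fasn was called, at 0.77 (edgeR adjusted p = 0.00204). Acly, which supplies cytosolic acetyl-CoA, was 431 and 416 in vehicle and 487 and 364 in the DMSO group, so that its libraries fell on both sides of vehicle. Scd2 split likewise, with 949 and 681 around a vehicle level of 847 and 852. Elovl6, the elongase of C16 fatty acids, was below vehicle in both DMSO libraries (83.7 and 56.5 against 102 and 101), at -0.53 (edgeR adjusted p = 0.0677), and was called with the length trend removed (edgeR adjusted p = 0.0209). Acaca, Scd1 and Fads1 were between -0.16 and 0.00, and Fads2 was at 0.27 (edgeR adjusted p = 0.139).

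The gene that differed most by fold was Abca1, the exporter that loads cholesterol onto lipid-poor apolipoprotein. It had 126 and 104 counts in vehicle, 32 and 20 in the DMSO group and 17 and 8 in the BI6727 group. The groups did not overlap, and the order was vehicle, DMSO, BI6727. In the fit of 14604 genes with the looser filter, its log2 fold change was -2.15 from vehicle to DMSO (SE 0.437, edgeR adjusted p = 0.0101) and -3.18 from vehicle to BI6727 (SE 0.483, edgeR adjusted p = 0.00241). The step from DMSO to BI6727, -1.03, did not pass (SE 0.533, edgeR adjusted p = 0.731). Fewer cells that make the transcript and less transcript per cell cannot be told apart in such bulk RNA. Lpl, the adipocyte marker named above, was lower in the same libraries, from 57.1 and 33.3 normalized CPM in vehicle to 7.63 or less in the treated ones, and its part was not tested. Stard4, which shuttles sterol between membranes, and Lpin1, a phosphatidate phosphatase, did not pass in the DMSO group (-0.36 and -0.22).

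The BI6727 group against the DMSO group asks what PLK1 inhibition changed under TGFB1. Most mevalonate and sterol enzymes were lower in the BI6727 libraries and Fasn and Acly were higher, but no member passed the test. At an adjusted p below 0.05 edgeR called 0 members and 0% of all genes in this comparison. At an unadjusted p below 0.05 there were 7 members lower, namely Hmgcs1, Pmvk, Mvd, Idi1, Fdps, Cyp51 and Stard4, and 1 higher, Acly. That is 21.2% and 3.03% of the members, where 4.52% and 2.16% of all genes lay below that p. DESeq2 called 39 genes and none of the members. In 13 members both BI6727 libraries were below both DMSO libraries and in 3 above, or 39.4% and 9.09%, against 17.1% and 17% of all genes. All 7 mevalonate enzymes and 9 of the 11 sterol enzymes had a negative log2 fold change, and so had 24 of the 33 members against 50.6% of all genes. The medians were -0.30 for the mevalonate and -0.14 for the sterol enzymes, against -0.00 for all genes. For the DMSO group against vehicle these medians were 0.28 and 0.17. Both comparisons use the same DMSO libraries, in which Mvd, Idi1, Fdps and Cyp51 were called higher. A high value in those libraries enters this comparison as a lower one, so these shares and medians are not a separate result.

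Cyp51 came closest to a call among the sterol enzymes, at -0.38 (SE 0.0928, edgeR adjusted p = 0.580). Its 2 BI6727 libraries lay below both DMSO libraries and overlapped with vehicle. Hmgcs1 had the same size, -0.38 (SE 0.106, edgeR adjusted p = 0.597). It measured 162 and 150.5 in the DMSO group and 112 and 128 in the BI6727 group, where vehicle had 162 and 156. With 1 library left out at a time, the log2 fold change of Cyp51 was between -0.42 and -0.34. That of Hmgcs1 was between -0.48 and -0.28. A call made without a DMSO library is no support, since the fit then takes the lone DMSO library to vary like the other groups.

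Among the 33 members of this fit Pmvk had the lowest log2 fold change, -0.73 (SE 0.200, edgeR adjusted p = 0.594), and its DMSO libraries were far apart. Since both comparisons use the DMSO libraries, the genes called in the first are given side by side and not as a separate result. Mvd, Idi1 and Fdps were at -0.28, -0.30 and -0.42 and remained above vehicle in all BI6727 libraries. Msmo1 was at -0.19 and Tm7sf2 at -0.16. Fasn was at 0.50 (SE 0.249, edgeR adjusted p = 0.758), which became 1.02 without DMSO replicate 1 and 0.11 without replicate 2. Acly was at 0.39 (SE 0.143, edgeR adjusted p = 0.704), with 558 and 555 in the BI6727 libraries above every other library. The regulators Srebf1, Srebf2, Scap and Insig2 were between -0.12 and 0.10, and Insig1 was at -0.21.

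**Figure D4:**
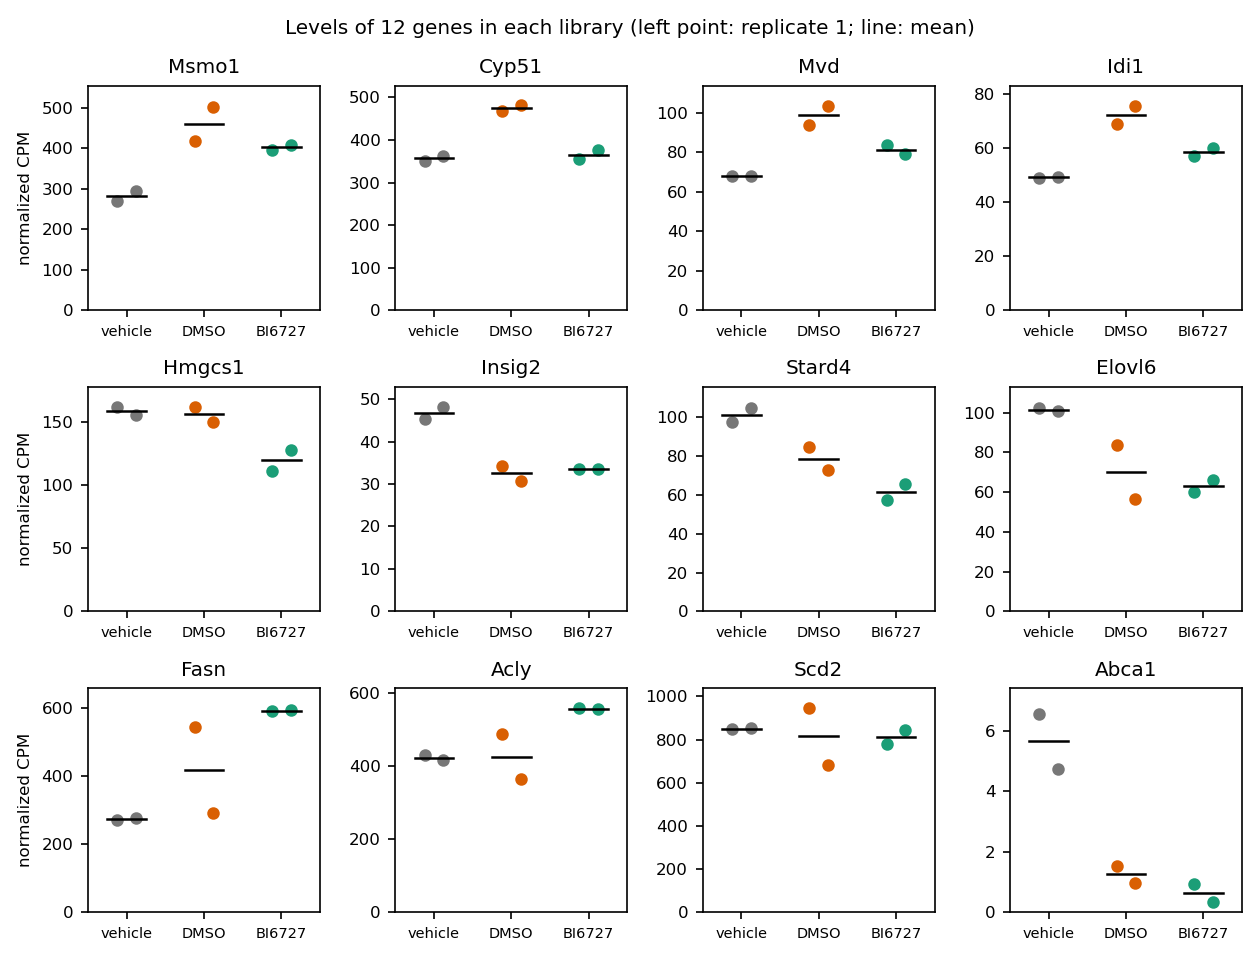
Normalized CPM (vertical axes, starting at 0) of 12 members in each library, with replicate 1 to the left of replicate 2 and the group mean as a line. The DMSO pair is highest for Cyp51, Mvd and Idi1, the BI6727 pair is lowest for Hmgcs1 and Stard4, and the DMSO points lie far apart for Fasn, Acly and Scd2.

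The BI6727 group against vehicle combines TGFB1 with the inhibitor, and shares its vehicle libraries with the first comparison. Here Fasn and Msmo1 rose, and Hmgcs1, Mvk, Insig2, Elovl6 and Stard4 fell, which is 2 and 5 of the 33 tested members. These shares of 6.06% and 15.2% stand beside 11.3% of all genes called higher and 13.2% lower. With edgeR, none of these 33 members passed the study's threshold, which 2.34% of all genes passed upward and 2.96% downward, while Abca1 passed it downward in the fit with the looser filter. In 11 members (33.3%) both BI6727 libraries were above both vehicle libraries and in 14 (42.4%) below, against 38.4% and 38.3% of all genes. The member median was -0.00.

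Among the 33 members of this fit Fasn had the largest change, 2.17-fold or 1.12 on the log2 scale (SE 0.252, edgeR adjusted p = 0.0181), with 590 and 593 normalized CPM in its BI6727 libraries against 270 and 276. Msmo1 stood at 0.51 (SE 0.117, edgeR adjusted p = 0.0184), beside 0.71 in the DMSO group. Stard4 was 97.6 and 105 in vehicle, 84.4 and 72.7 in the DMSO group and 57.4 and 65.4 in the BI6727 group, so that the 3 groups were stepped without overlap. It fell by 0.72 on the log2 scale (SE 0.120, edgeR adjusted p = 0.00558). Hmgcs1 was at -0.40 (SE 0.106, edgeR adjusted p = 0.0310) and Elovl6 at -0.68 (SE 0.177, edgeR adjusted p = 0.0300), the latter from 102 and 101 to 60.1 and 66.2. Mvk and Insig2 were at -0.56 and -0.47, beside -0.42 and -0.52 in the DMSO group (edgeR adjusted p = 0.0164 and 0.0254 here). With 1 library left out at a time, the log2 fold changes of all 7 kept their signs. Those of the members called higher were between 0.45 (Msmo1) and 1.13 (Fasn). Those of the members called lower were between -0.82 (Stard4) and -0.31 (Hmgcs1). The calls were lost without either vehicle library or BI6727 replicate 1, and all but that of Stard4 without BI6727 replicate 2. A call kept without a DMSO library is no support, since these libraries enter this comparison chiefly through the shared estimate of spread.

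Of the other members that rose in the DMSO group, edgeR called none here, while DESeq2 called Fdps (DESeq2 adjusted p = 0.0418). Fdps was at 0.59 (edgeR adjusted p = 0.0539), Tm7sf2 at 0.37 (0.108), Mvd at 0.26 (0.103) and Idi1 at 0.25 (0.122), whereas Cyp51 was at 0.04 (0.812). Acly was at 0.40 (edgeR adjusted p = 0.0867, DESeq2 adjusted p = 0.0496). With the length trend removed, Fdps and Acly were both called (edgeR adjusted p = 0.0264 and 0.0125). Srebf2 was at -0.39 (edgeR adjusted p = 0.0863), and none of the 5 regulators was above 0.

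**Figure D5:**
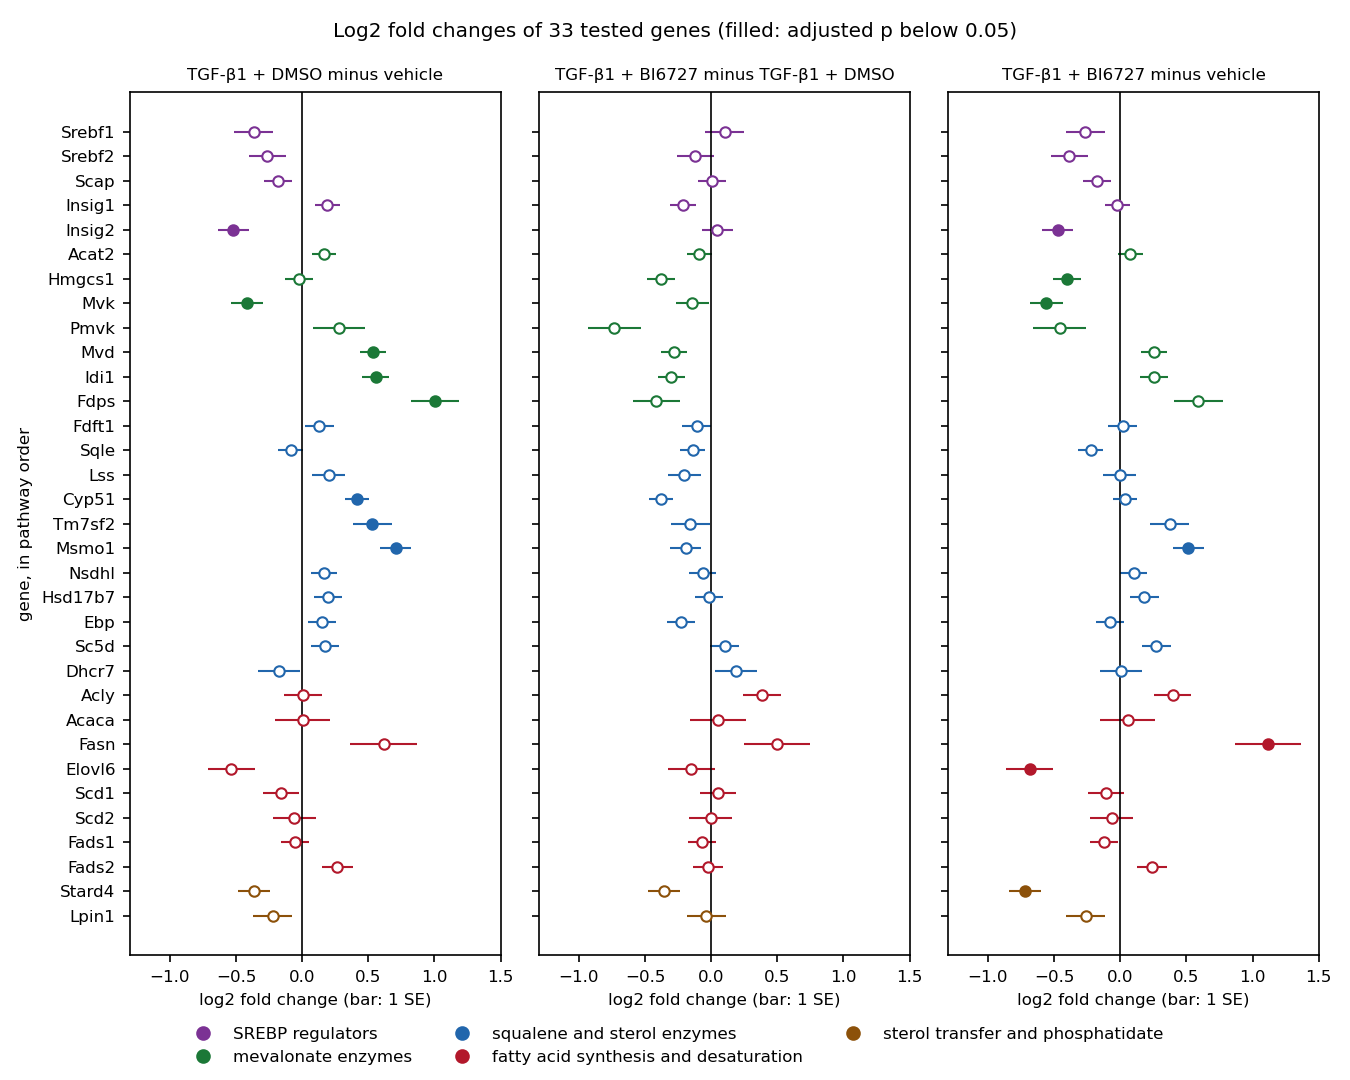
Log2 fold changes (horizontal axes) of the 33 tested members in pathway order for the 3 comparisons, with bars of 1 SE and filled points for adjusted p below 0.05. The middle panel, BI6727 against DMSO, has no filled point, and most of its mevalonate and sterol enzymes lie left of 0.

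Other genes of the pathway, from lists that hold no member, were called in both directions. Among 6 tested genes of SREBP cleavage and LXR signalling, 3 were lower in the DMSO group and none higher, where 12% and 11% of all genes were called so. These were Mbtps1, the site-1 protease that cleaves SREBPs (-0.83, edgeR adjusted p = 0.00157), Rxra, the partner of LXR (-0.79, 0.00422), and Mylip, a sterol-induced ubiquitin ligase (-0.78, 0.0224). Mbtps1 measured 210 and 215 in vehicle against 112 to 141 in the 4 treated libraries. Of 17 other lipogenic genes tested, 2 rose and 2 fell (11.8% each, near the share of all genes), and the largest change was in Acsl1, a long-chain acyl-CoA synthetase (-1.95, edgeR adjusted p = 0.000706). Acsl3 (0.47) and the citrate carrier Slc25a1 (0.42) rose and Elovl5 (-0.69) fell.

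Of 16 tested genes of cholesterol uptake, trafficking and storage, 3 rose and 2 fell in the DMSO group. These are 18.8% and 12.5%, where 11% and 12% of all genes were called so. Plin2, a coat protein of lipid droplets, was 227 and 252 in vehicle and between 525 and 590 in the treated libraries (1.22, edgeR adjusted p = 0.000441). Gramd1a, which carries plasma membrane cholesterol inward, rose by 0.98 and Soat1, which esterifies cholesterol, by 0.49 (edgeR adjusted p = 0.00225 and 0.0171). Caveolin Cav1 was at -1.33 and the lysosomal lipase Lipa at -0.70 (edgeR adjusted p = 0.000166 and 0.00888). Among 11 isoprenoid branch genes Rabggtb (0.53) and Ggps1 (0.45) rose and none fell. Among 8 late sterol and sterol-binding genes, Cyb5r3 (-0.65), the reductase that feeds electrons to the C4 oxidase and Sc5d, and Rdh11 (-0.40) fell. In the BI6727 group against the DMSO group edgeR called none of the genes on these lists. Against vehicle, the BI6727 group gave 3 lower of the 6 cleavage and LXR genes, 3 lower of the 8 late sterol genes, 2 higher of the 11 isoprenoid genes, 2 higher and 3 lower of the 17 lipogenic genes, and 3 higher and 2 lower of the 16 uptake, trafficking and storage genes, where 11.3% of all genes were called higher and 13.2% lower. Among these, Cav1 was at -2.17, Acsl1 at -1.92 and Plin2 at 1.19 (edgeR adjusted p = 2.93e-05, 0.000704 and 0.000436).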

How the data were processed

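Per the labels, ribosomal RNA was removed. The authors' methods give single-end reads from a BGISEQ-500 instrument, mapped to mm10 with Subjunc and counted per gene of Gencode M20 with featureCounts; the submitters' processing notes name Subread 1.6.4. The deposited table holds raw counts per gene in the 6 libraries, with the exonic length of each gene, and its totals of 18362378 to 24452153 counts set the counting precision. The strand setting of the counting is not given in the sources used here. Symbols and overlaps came from Gencode M21 of the same assembly, and 54723 of the 54752 identifiers matched.

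The filter worded in the authors' methods was applied, 10 CPM or more in over 3 libraries, which kept 9518 genes. The paper reports an expression profile of more genes than that, so the set tested here differs from the authors' own. Counts of all 6 libraries were fitted in 1 model with 3 residual degrees of freedom by edgeR 4.0.16 (TMM scaling, quasi-likelihood test, Benjamini-Hochberg adjustment, limma 3.58.1, R 4.3.3). The authors used DESeq2 1.22.2, and DESeq2 1.42.0 was run as an alternative. CPM were normalized to the summed counts of the kept genes after TMM scaling, log2 values used a prior count of 1, and the SE is the log2 fold change over the root of the F statistic. Abca1 was taken from the fit of 14604 genes kept by filterByExpr. Calls were an adjusted p below 0.05, and the authors' threshold of 0.01 with a fold above 2 is given beside them. The script was tested on simulated data.

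The members and lists were chosen with earlier results of these data known. All 35 members are accounted for. From the other lists, the counts past the threshold and up to 5 genes with the largest change among them are given; Spring1 and Faxdc2 were not found by symbol. 1 result of these lists is not reported here. Fdps, Idi1, Acat2 and others share sequence with other genes, found with windows of 50 bases over the annotated transcripts. Promoters were from RefSeq (GRCm38.p6).

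Alternatives were DESeq2, its size factors, other filters, the 2 compared groups alone, the replicate number as a block, a lowess trend on gene length (span 0.3) removed per library, and each library left out.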

Additional observations from a re-analysis of the deposited data

How the results depend on the processing

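With 2 libraries per group, the counts of members called depended mostly on single libraries. Leaving out 1 library at a time gave 0 to 11 members higher and 0 to 11 lower in the DMSO group against vehicle, 0 to 6 and 0 to 9 in the BI6727 group against the DMSO group, and 0 to 9 and 0 to 10 in the BI6727 group against vehicle. Against vehicle, the 0 values came from leaving out a vehicle or a BI6727 library and the highest from leaving out a DMSO library. Between the treated groups, members were called only without a DMSO library. A group left with 1 library is assumed to vary like the others. The member medians ranged from 0.0152 to 0.134, from -0.173 to -0.0142 and from -0.0444 to 0.0288 in the same order. Without DMSO replicate 1, Acly in the DMSO group turned to -0.22 (edgeR adjusted p = 0.0156), against 0.22 without replicate 2, and Scd2 in the BI6727 group against the DMSO group to 0.26 (edgeR adjusted p = 0.0159), against -0.24 without replicate 2; with all libraries neither was called.

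For the DMSO group against vehicle, the number of members higher stayed between 4 and 8 in the other fits and was 1 at the study's threshold. The number lower, 2, was 1 with DESeq2's size factors, 0 with only the 2 groups, 4 with the length trend removed and 0 at the study's threshold. For the BI6727 group against vehicle, 2 members higher became 4 with DESeq2, 9 with only the 2 groups, 5 with the length trend removed, 4 with that and the replicate block, and 0 at the study's threshold; 5 lower became 10 with only the 2 groups and 0 at the study's threshold. The cause was not tested.

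The replicate numbers gave no sign of pairing, with correlations of same-numbered deviations of -0.11, -0.26 and 0.05. With the replicate number as a block, 5 members were higher and 1 lower in the DMSO group against vehicle, none was called between the treated groups, and 2 were higher and 3 lower in the BI6727 group against vehicle. With the DMSO numbers exchanged in the block, an alternative chosen after seeing the data, 6 were higher and 4 lower, then none, then 3 higher and 5 lower.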
